A study of Mus musculus with 8 samples.

Results

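The mRNAs of 10 enzymes that make serine, pass its carbon through mitochondrial folate and make proline were followed in mouse cochleae carrying 1 defective copy of *Opa1*. They were chosen by gene symbol, *Phgdh*, *Psat1*, *Psph*, *Shmt2*, *Shmt1*, *Mthfd2*, *Mthfd1l*, *Aldh1l2*, *Aldh18a1* and *Pycr1*, from the 47628 entries of the count tables that name a gene. All 10 were found once each, and all 10 passed the minimum of a mean normalized count over 10 that 19366 genes passed. RNA of isolated cochleae came from 4 WT mice, labelled WT_4, WT_5, WT_6 and WT_8, and from 4 Opa1+/- littermates, labelled Het_2, Het_7, Het_484 and Het_491, none of them treated, at post-natal age p21 by the paper's methods. The Opa1+/- mice are heterozygous knock-ins of the human delTTAG mutation on a mixed background of C57BL/6 J and 129 Sv/Pas, and every cell of the animal carries the allele. Mice of both sexes were used in the study, and the labels give neither the sex nor the litter of a mouse. The libraries hold the whole organ with its nerve, bone and blood, so that fewer cells of a type and less RNA per cell cannot be told apart.

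Serine is made from a glycolytic intermediate in the cytosol, and its carbon is handed to folate, largely inside mitochondria, for the synthesis of purines and thymidylate and for methylation. Proline is made from glutamate, also at the mitochondrion, and feeds collagen among other proteins. The transcription factor ATF4, whose translation increases in the integrated stress response, drives many genes of these pathways, and their induction is a well-known reaction of several tissues to failing mitochondria. OPA1, the protein that *Opa1* encodes, fuses the inner mitochondrial membrane and holds the cristae in shape.

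Counts on named genes ranged from 15978051 to 20828030 per mouse. The targeted gene *Opa1* stood at 118.7, 125.9, 111.7 and 122.4 CPM (counts per 1000000 counts of that mouse, library sizes scaled by TMM) in WT_4, WT_5, WT_6 and WT_8. In Het_2, Het_7, Het_484 and Het_491 it stood at 63.5, 68.4, 60.4 and 70.02 CPM. All 4 Opa1+/- values lay below all 4 WT values (log2 fold change -0.87, standard error 0.0677, adjusted p = 0.00515, quasi-likelihood test of edgeR, adjusted after Benjamini and Hochberg), so the genotype labels and the counts matched. Without Het_2 the log2 fold change was -0.85 and its adjusted p 0.0704 from edgeR. Markers of hair cells, spiral ganglion neurons, the stria vascularis and fibrocytes were all present, with the lowest summed level, that of 10 hair cell genes, between 232.5 and 405.7 CPM. *Pvalb*, whose protein the paper used as a label of both hair cells and spiral ganglion neurons, had between 107.4 and 244.9 CPM of that sum.

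One of the 10 mRNAs, that of *Phgdh*, can share reads with copies of itself elsewhere in the genome, so its sequence is shown beside a copy. *Phgdh* encodes phosphoglycerate dehydrogenase, the first enzyme of serine synthesis, and lies on chromosome 3 from 98313170 to 98339990 on the minus strand (GRCm38, GENCODE vM21). Its copies are processed pseudogenes, which arise when an mRNA is copied back into DNA. Of the stretches of 80 bases, the read length, of its longest transcript, 44.9% are found letter for letter in a transcript of another gene. The most counted copy, *Gm7901* on chromosome 8 from 75711600 to 75713196, matches *Phgdh* in 98.9% of 1595 aligned bases. The 60 coding bases within 1 exon that hold the most differences are shown for each, with the bases that differ in capitals. The stretch of *Phgdh* lies in exon 11 of 12, chr3:98314188-98314247, minus strand. That of *Gm7901* lies in its single exon, chr8:75711768-75711827, minus strand.
Phgdh: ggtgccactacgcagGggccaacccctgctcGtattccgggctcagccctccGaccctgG
Gm7901: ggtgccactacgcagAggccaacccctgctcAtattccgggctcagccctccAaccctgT
Even here only 4 of 60 bases distinguish the gene from its copy. For the other 9 enzymes the share of 80-base stretches found in the same orientation in another gene was between 0 and 0.136%. In the opposite orientation *Psph* shared 6.29% with *Cct6a*, *Shmt1* 3.78% with *Smcr8*, and *Aldh1l2* 16.4% with *D10Wsu102e*, genes that overlap their ends. The sources used here do not say whether strand was used in counting, so reads of *Psph*, *Shmt1* and *Aldh1l2* could include some of these neighbours.

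Per exon length, *Phgdh* and *Psat1* were the most abundant of the 10. Levels are given here as TPM, counts per kilobase of annotated exon, scaled to the same sum in every mouse. *Phgdh* had 31.3 and *Psat1*, the aminotransferase that follows it in the pathway, 25.6 TPM over the 8 mice, and their ranges, 26.4 to 34.9 and 20.7 to 30.6 TPM, overlapped. A second tier held *Mthfd2* at 9.37, *Shmt2* at 8.83 and *Aldh18a1* at 8.57 TPM, which also overlapped one another. *Psph* at 4.21 and *Mthfd1l* at 4.02 TPM formed the third tier. *Aldh1l2* at 1.13, *Pycr1* at 0.976 and *Shmt1* at 0.738 TPM were the least abundant, again with overlapping ranges. Between tiers the ranges did not overlap. Among the 18581 genes tested that have an annotated length, *Phgdh* stood at percentile 84.5 and *Shmt1* at percentile 6.45. With the length of the longest transcript in place of all exons, *Psat1* (37.1 TPM) came before *Phgdh* (36.7 TPM), and the order of the other 8 did not change.

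**Figure D1:**
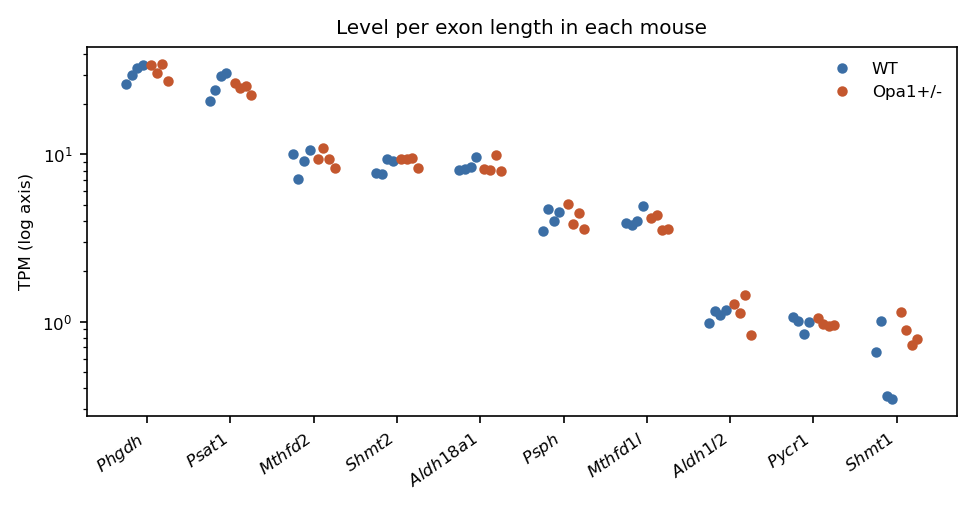
TPM per exon length (log axis) of the 10 enzymes in each of 4 WT mice (blue) and 4 Opa1+/- mice (orange), ordered by the mean over all 8. *Phgdh* and *Psat1* lie above 20 TPM in every mouse, and *Aldh1l2*, *Pycr1* and *Shmt1* lie below 1.5 TPM in every mouse.

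The comparison of Opa1+/- with WT mice asks whether the loss of 1 *Opa1* copy had moved this pathway before hearing loss began. None of the 10 enzymes passed an adjusted p of 0.05 in edgeR, where 0.0258% of all genes tested did (0.0207% higher and 0.00516% lower). Without adjustment 1 of 10, *Shmt2*, had a p under 0.05, where 6.72% of all genes did (3.51% higher and 3.22% lower). DESeq2's Wald test passed none after adjustment, where it passed 0.119% of all genes, and 1 before it, where it passed 5.77%. With limma voom none of the 10 passed after adjustment, where 0.0516% of all genes did, and 2 before it, where 10.3% did. The lowest adjusted p among the 10 was 0.7215 with edgeR, 0.857 with DESeq2 and 0.423 with limma voom. In none of the 10 enzymes did the 4 Opa1+/- values lie wholly apart from the 4 WT values, where 4.31% of all genes showed such a gap (1.98% higher and 2.33% lower). The upper ends of the 95% intervals of the fold changes lay between 1.18-fold and 1.41-fold for 9 enzymes, and at 2.755-fold for the sparsely counted *Shmt1*.

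**Figure D2:**
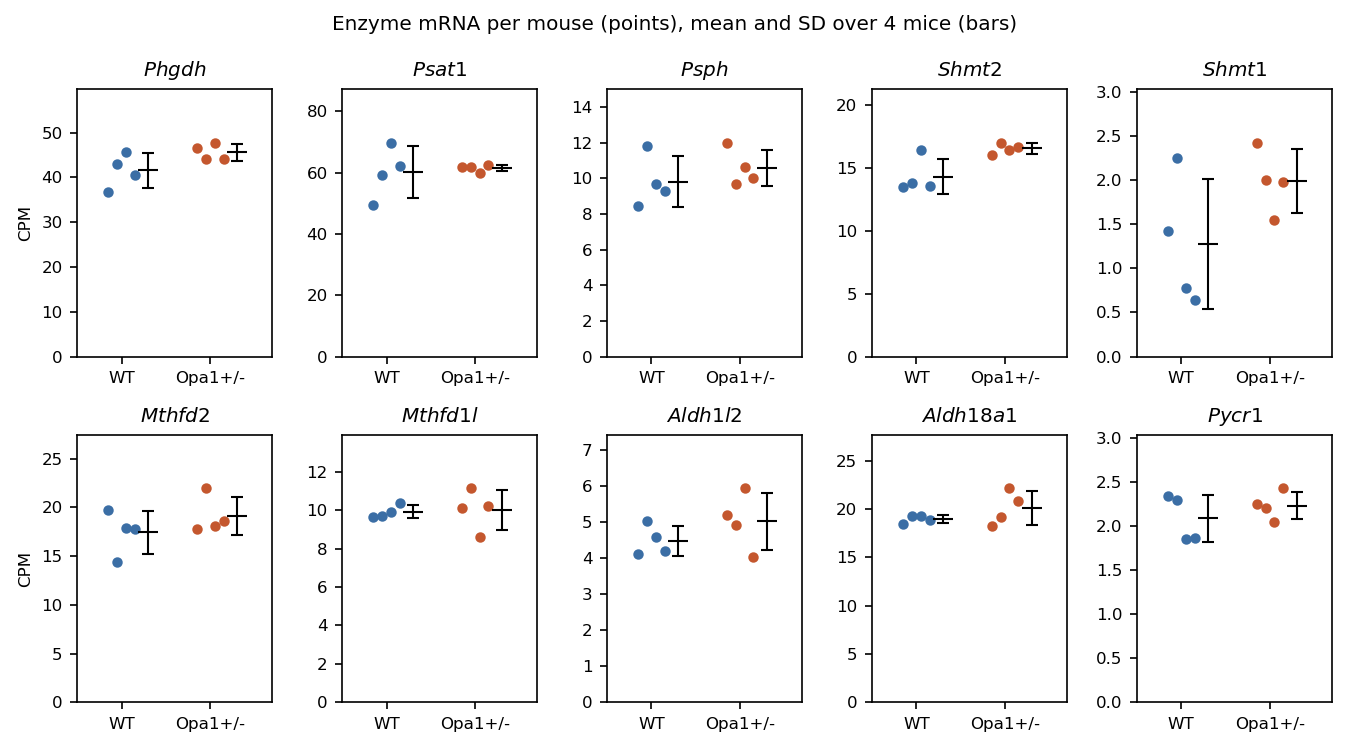
CPM of each enzyme (y axis from 0) in 4 WT mice (blue) and 4 Opa1+/- mice (orange), with the mean and SD over 4 mice as bars. In all 10 panels the values of both genotypes overlap, and the Opa1+/- mean is the higher.

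Of the serine enzymes, *Phgdh* had 36.8, 43.1, 45.8 and 40.5 CPM in WT_4, WT_5, WT_6 and WT_8. Het_2, Het_7, Het_484 and Het_491 had 46.6, 44.0, 47.8 and 44.0 CPM. WT_6 lay inside the range of the Opa1+/- mice and the other WT mice lay below it. Its log2 fold change was 0.13 (standard error 0.0723, 95% interval -0.028 to 0.30, adjusted p = 0.762 from edgeR, exact two-sided permutation test p = 0.114), and without WT_4 it was 0.082. Of 9 processed pseudogenes found in the annotation, 5 had counts to analyse and the other 4 were not analysed here. *Gm7901* had 5.94, 7.715, 7.83 and 7.69 CPM in the WT mice and 9.165, 9.625, 9.035 and 8.87 CPM in the Opa1+/- mice. All 4 Opa1+/- values were above all 4 WT values (p = 0.0286 in the two-sided exact permutation test, the smallest that 4 against 4 mice allow), and its log2 fold change was 0.33 (adjusted p = 0.7215 from edgeR). *Gm7901* was named after its values were seen, and 1.98% of all genes tested were higher without overlap. Summed over 5 listed copies, the levels were 10.3 ± 1.43 CPM in the WT group and 13.2 ± 0.635 CPM in the heterozygotes (n = 4 each, SD). With these counts added to *Phgdh*, a step chosen after the data were seen, the sum was 51.8 ± 5.07 CPM in the WT group and 58.8 ± 1.66 CPM in the heterozygotes (n = 4 each, SD). The log2 fold change of this sum was 0.18 (standard error 0.0735, unadjusted p = 0.0338, adjusted p = 0.722 from edgeR). The lowest Opa1+/- value of that sum, 56.9 CPM, lay just above the highest WT value, 56.7 CPM.

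*Psat1* lies on chromosome 19 from 15904678 to 15947337. It had 49.5, 59.4, 69.8 and 62.1 CPM in the WT mice and 62.0, 61.8, 60.03 and 62.5 CPM in the Opa1+/- mice. All Opa1+/- values fell within the WT range, and the WT mice spread more widely, with an SD of 8.41 against 1.07 CPM. Its log2 fold change was 0.032 (95% interval -0.18 to 0.24, adjusted p = 0.9595 from edgeR), and without WT_4, the lowest of the 8, it was -0.049, and without WT_6, the highest, 0.11. *Psph* encodes the phosphatase that releases free serine, and lies on chromosome 5 from 129765558 to 129787449. WT mice had 8.45, 11.8, 9.68 and 9.30 CPM and Opa1+/- mice 12.0, 9.675, 10.6 and 10.02 CPM, so that the groups overlapped over most of their range. *Psph* had a log2 fold change of 0.11 (95% interval -0.17 to 0.39, adjusted p = 0.889 from edgeR). It was 0.044 without WT_4, 0.045 without Het_2 and 0.21 without WT_5.

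Of the folate enzymes, *Shmt2* came nearest to a difference. It encodes the mitochondrial serine hydroxymethyltransferase, which moves a carbon from serine to folate and leaves glycine, and lies on chromosome 10 from 127517123 to 127522444. WT_4, WT_5, WT_6 and WT_8 had 13.5, 13.8, 16.4 and 13.5 CPM, and Het_2, Het_7, Het_484 and Het_491 had 16.02, 17.0, 16.4 and 16.7 CPM. WT_6 lay among the Opa1+/- mice, and the other 3 WT mice lay below all of them. The mean was 15.8% higher in Opa1+/- mice by edgeR's fit (log2 fold change 0.21, standard error 0.0844, 95% interval 0.022 to 0.40). Its p was 0.0325 without and 0.7215 with adjustment from edgeR, and 0.0571 in the exact two-sided permutation test. The unadjusted p was over 0.05 in each fit that left out WT_4, WT_5, WT_8, Het_7, Het_484 or Het_491, where the log2 fold change lay between 0.18 and 0.22. Without WT_6 the log2 fold change was 0.28 (unadjusted p = 0.00371, adjusted p = 0.636 from edgeR).

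*Shmt1*, the cytosolic counterpart of *Shmt2*, lies on chromosome 11 from 60788104 to 60811718 and was the least counted, with 13 to 46 counts per mouse. It had 1.43, 2.25, 0.777 and 0.637 CPM in the WT mice and 2.42, 2.005, 1.55 and 1.98 CPM in the Opa1+/- mice. WT_5 lay among the highest Opa1+/- values, and the other WT mice lay below all 4 of them. The log2 fold change, 0.64, was the highest of the 10 and the least certain (standard error 0.368, 95% interval -0.19 to 1.46, adjusted p = 0.769 from edgeR). It was 1.08 without WT_5 (unadjusted p = 0.00819 from edgeR), 0.40 without WT_8 and 0.20 with the level of erythroid markers as a covariate. Erythroid genes summed to 21530, 12380, 8755 and 7774 CPM in WT_4, WT_5, WT_6 and WT_8, and to 15500, 15120, 18510 and 25110 CPM in Het_2, Het_7, Het_484 and Het_491. WT_5 and WT_4 had the most *Shmt1* and the most erythroid RNA of the WT mice, while of the Opa1+/- mice Het_2 had the most *Shmt1* and Het_491 the most erythroid RNA. All 14 erythroid genes tested were higher in value in Opa1+/- mice, with a median log2 fold change of 0.53, and none passed the adjusted threshold. Their part in the difference of *Shmt1* was not tested.

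*Mthfd2* encodes the mitochondrial dehydrogenase and cyclohydrolase that acts next on the folate-bound carbon, and lies on chromosome 6 from 83305691 to 83325908. WT mice had 19.7, 14.4, 17.9 and 17.8 CPM and Opa1+/- mice 17.8, 22.0, 18.1 and 18.6 CPM. Het_7 was the highest and WT_5 the lowest, and the other 6 mice lay between 17.8 and 19.7 CPM. Its log2 fold change was 0.13 (95% interval -0.11 to 0.38, adjusted p = 0.834 from edgeR). It was 0.050 without WT_5 and 0.059 without Het_7, the lowest and the highest mouse.

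*Mthfd1l*, the synthetase that releases formate from mitochondrial folate, lies on chromosome 10 from 3973118 to 4167081. It differed least of all, with 9.65, 9.67, 9.92 and 10.4 CPM in the WT group and 10.1, 11.1, 8.60 and 10.2 CPM in Opa1+/- mice. Its fitted log2 fold change was 0.017 (95% interval -0.21 to 0.24, adjusted p = 0.979 from edgeR). It was below 0 with total counts alone (-0.013), with limma voom (-0.0088) and without Het_7 (-0.039), and it was 0.087 without Het_484 and 0.10 without both Het_484 and Het_491. *Aldh1l2* oxidises the folate-bound carbon to CO2 in mitochondria with gain of NADPH, and lies on chromosome 10 from 83487450 to 83534140. WT mice had 4.11, 5.03, 4.60 and 4.21 CPM, and Opa1+/- mice spread around them with 5.20, 4.91, 5.94 and 4.02 CPM, the highest and the lowest of the 8 among them. *Aldh1l2* had a log2 fold change of 0.16 (95% interval -0.17 to 0.49, adjusted p = 0.851 from edgeR), which was 0.076 without Het_484 and 0.25 without Het_491. Taken as a sum, the 5 folate enzymes reached 48.3, 45.1, 49.6 and 46.6 CPM in the WT group and 51.6, 57.0, 50.6 and 51.4 CPM in Opa1+/- mice, so that the sums of the 2 genotypes did not overlap. That sum is dominated by *Mthfd2* and *Shmt2*, and no test is given for it because the enzymes were chosen as a list. The other sums did overlap. Those of the 3 serine enzymes ran from 94.75 to 125.3 CPM in the WT group and from 115.4 to 120.6 CPM in the heterozygotes. Those of all 10 enzymes ran from 163.9 to 196.0 CPM and from 191.3 to 193.8 CPM.

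Of the proline enzymes, *Aldh18a1* encodes the synthase that turns glutamate into the precursor of proline, and lies on chromosome 19 from 40550257 to 40588463. The WT mice were close together at 18.5, 19.2, 19.3 and 18.9 CPM. Opa1+/- mice had 18.3, 19.2, 22.2 and 20.9 CPM, with Het_484 and Het_491 above all WT mice and Het_2 and Het_7 not. The log2 fold change was 0.084 (95% interval -0.086 to 0.25, adjusted p = 0.849 from edgeR). It was 0.13 without Het_2, 0.038 without Het_484 and -0.020 without both Het_484 and Het_491. *Pycr1* encodes the mitochondrial reductase of the last step, and lies on chromosome 11 from 120635712 to 120643769. It had 2.34, 2.295, 1.85 and 1.86 CPM in the WT group and 2.25, 2.21, 2.04 and 2.425 CPM in Opa1+/- mice. WT_4 and WT_5 lay among the Opa1+/- mice, WT_6 and WT_8 below them. *Pycr1* had a log2 fold change of 0.094 (95% interval -0.27 to 0.46, adjusted p = 0.9305 from edgeR). With 1 mouse left out it ran from 0.038, without WT_8, to 0.15, without WT_4, and with erythroid markers as a covariate it was -0.050.

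**Figure D3:**
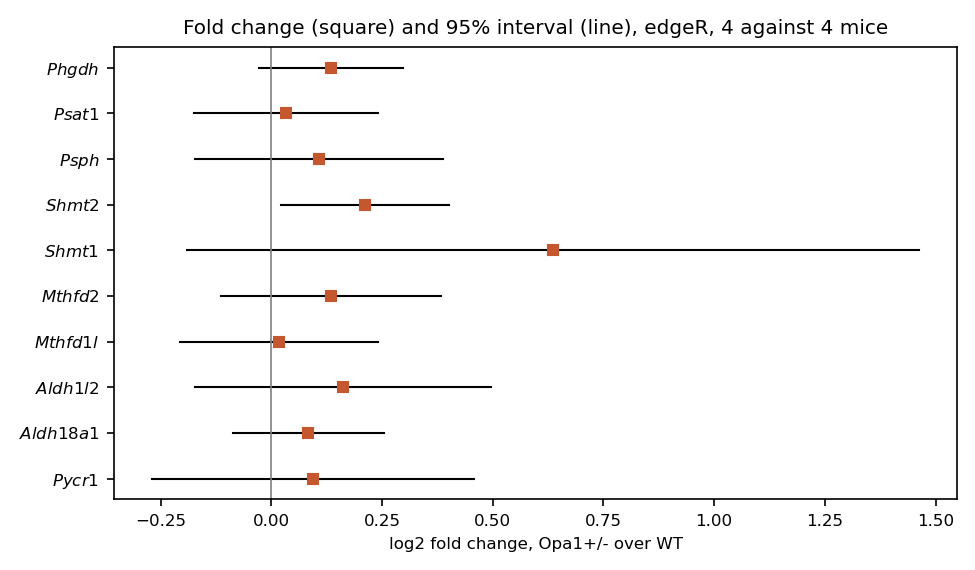
Log2 fold change of Opa1+/- over WT (squares) with its 95% interval (lines) for each enzyme, from edgeR's fit on 4 against 4 mice. All squares lie to the right of 0, and the interval of *Shmt2* is the only one that does not include 0.

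All 10 log2 fold changes were above 0, with a median of 0.12 and a range from 0.017 to 0.64, while 50.1% of all genes tested were above 0 and their median was 4e-04. The 10 were chosen as a list with results of these data known, so no test of this count is given. The median over the 10 lay between 0.094 and 0.15 under every alternative fit of the counts. The count of 10 did not hold in every fit or on every scale. It was 9 with total counts alone, with limma voom, with erythroid markers as a covariate and without both Het_484 and Het_491. In the fits without WT_4 and without Het_7, *Psat1* and *Mthfd1l* in turn were below 0. On the TPM scale, without TMM factors, the count was 7, with *Psat1*, *Mthfd1l* and *Aldh18a1* below 0 and a median over the 10 of 0.029. On that scale the median of all genes was itself -0.095, and haemoglobin took between 2.09% and 5.21% of the TPM of each mouse. Relative to that median all 10 were above it, by 0.12 at their own median. By mouse, the median deviation of the 10 enzymes from their WT means was -0.058, 0.038, 0.032 and -0.048 in WT_4, WT_5, WT_6 and WT_8 on the log2 scale. It was 0.14, 0.11, 0.17 and 0.094 in Het_2, Het_7, Het_484 and Het_491. Between 8 and 9 of the 10 enzymes were above their WT mean in each Opa1+/- mouse, against 3, 6, 7 and 3 in the WT mice. The WT deviations of each enzyme cancel by construction, so the WT counts are no separate result.

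**Figure D4:**
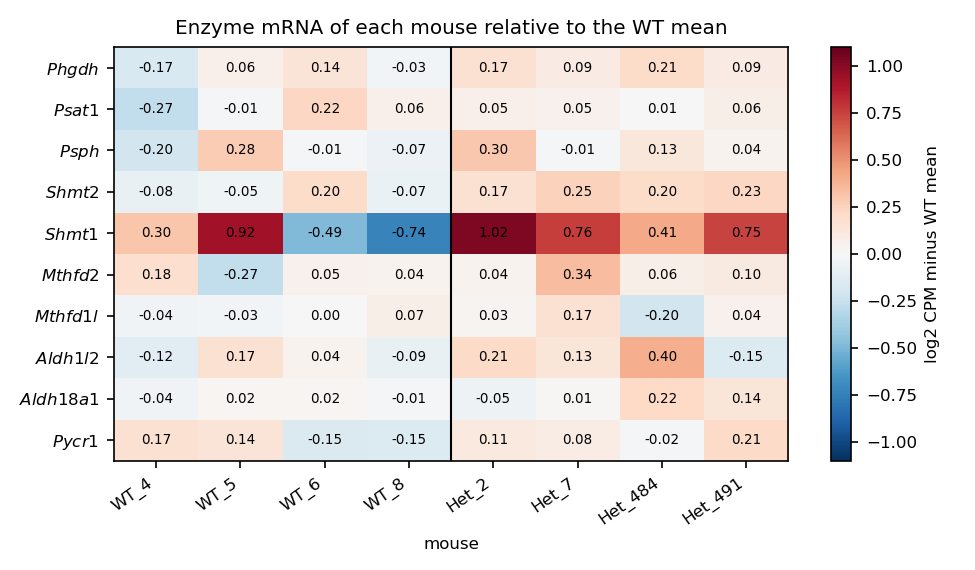
Log2 CPM of each enzyme (rows) in each mouse (columns) minus the mean of the 4 WT mice, with the difference printed and coloured from -1.1 (blue) to 1.1 (red). *Shmt1* varies most, from -0.74 in WT_8 to 1.02 in Het_2, and the other 9 enzymes stay between -0.27 and 0.40.

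Variation among mice of the same genotype was compared enzyme by enzyme. After subtraction of the genotype means, 22 of the 45 pairs of enzymes had a Pearson r above 0 over the 8 mice, and the median r was -0.038. No pair passed Benjamini-Hochberg adjustment over the 45 pairs. The lowest adjusted p, 0.0848 from an exact permutation test, was that of *Psph* and *Mthfd2*, which ran opposite to each other (r = -0.91, rho = -0.88, unadjusted p 0.001885 and 0.00724 from exact permutation tests). With values exchanged only within a genotype the exact permutation p of r was 0.00694 and its adjusted p 0.3125. Their r was -0.80 without the 2 mice farthest from the median of *Psph*, and -0.62 without subtraction of the genotype means. *Phgdh* and *Psat1*, neighbours in the pathway, had an r of 0.80, which was -0.70 without 2 such mice and so rested on those (rho = 0.33, adjusted p = 0.459 for r and 0.794 for rho from exact permutation tests). Genes beyond the 10 were ranked by r without subtraction of the genotype means, so a difference between genotypes is part of that r. Of 17965 genes with a mean of at least 1 CPM, those whose log2 CPM followed that of *Phgdh* most closely over the 8 mice were *Dmwd* (r = 0.98), *Plin3* (r = 0.97) and *Nfkb2* (r = 0.97). For *Mthfd2* they were *Gm10290*, *Mcts2* and *Apopt1*, all with an r of 0.94, and for *Pycr1* they were *Them4* (r = 0.97), *Gm10108* (r = 0.96) and *Gm12989* (r = 0.96). Spearman's rho for these 9 genes lay between 0.69 and 0.95. All are the highest of many values and come from 8 libraries, so they carry no p, and no enzyme of the 10 was among them.

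Around the 10 enzymes, 54 of 59 other genes of folate, serine, glycine and proline metabolism and of the ATF4 axis were tested. None passed the adjusted threshold with edgeR, DESeq2 or limma voom. Of the 54, 4 had an unadjusted p under 0.05 in edgeR, where 6.72% of all genes tested did. Of 17 other folate cycle genes, 10 were higher and 7 lower in value in Opa1+/- mice, with a median log2 fold change of 0.018, and with total counts alone 8 were higher and 9 lower. *Tyms*, which makes thymidylate, had 6.13 CPM in the WT group and 7.89 CPM in the heterozygotes on average, between 4.55 and 8.16 CPM against 6.62 and 8.91 CPM, with an adjusted p of 0.758 from edgeR. Its log2 fold change of 0.37 ran from 0.24 to 0.535 with 1 mouse left out and was 0.13 with erythroid markers as a covariate. *Ggh*, which trims stored folates, had a log2 fold change of -0.20 (adjusted p = 0.772 from edgeR). That of *Ggh* ran from -0.29 to -0.14 with 1 mouse left out and was -0.099 with erythroid markers as a covariate. The cytosolic enzyme *Mthfd1*, which carries out in 1 protein what the mitochondrial enzymes share out, was nearly equal, at 28.6 ± 1.47 and 28.85 ± 1.38 CPM (n = 4 each, SD). *Mthfd2l*, the relative of *Mthfd2*, had a log2 fold change of -0.17, and *Aldh1l1*, the cytosolic relative of *Aldh1l2*, one of 0.17 (adjusted p = 0.778 and 0.825 from edgeR), which was 0.069 without WT_8. The mitochondrial carriers of folate and serine, *Slc25a32* and *Sfxn1*, had log2 fold changes of 0.037 and 0.012, which ran from -0.018 to 0.070 and from -0.034 to 0.073 with 1 mouse left out.

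Among 12 tested genes of serine and glycine transport and use, 9 were higher and 3 lower in value, with a median of 0.018, and with total counts alone 4 were higher and 8 lower. The lowest p there were those of *Sdsl*, a serine dehydratase relative (log2 fold change 0.45), and of the transporter *Slc1a5* (0.29), with adjusted p of 0.758 and 0.785 from edgeR. The value of *Slc1a5* was 0.13 without WT_6 and 0.057 with erythroid markers as a covariate. Among 9 tested genes of proline and glutamate metabolism, 4 were higher and 5 lower in value, with a median of -0.0061, and with total counts alone 3 were higher and 6 lower. *Pycrl*, the older symbol of *Pycr3* and a relative of *Pycr1*, had a log2 fold change of 0.15 (adjusted p = 0.766 from edgeR). *Prodh*, which degrades proline, and *Oat*, which links proline to ornithine, had log2 fold changes of 0.065 and -0.054. That of *Prodh* ran from -0.061 to 0.24 with 1 mouse left out and was 0.36 with erythroid markers as a covariate. That of *Oat* ran from -0.091 to -0.0040 with 1 mouse left out.

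In the ATF4 axis, 14 of 16 tested genes were higher in value in Opa1+/- mice, with a median log2 fold change of 0.064, and with total counts alone 11 were. In 3 of the 16, all higher, the groups did not overlap, where 1.98% of all genes were higher without overlap. *Ddit3*, a stress transcription factor downstream of ATF4, had 30.1, 26.1, 27.96 and 27.6 CPM in the WT mice and 33.9, 34.7, 39.2 and 31.7 CPM in the Opa1+/- mice (log2 fold change 0.32, unadjusted p = 0.00209, adjusted p = 0.7215 from edgeR). *Atf5*, a relative of ATF4 tied to mitochondrial stress, had 36.4, 45.8, 39.0 and 38.8 CPM in the WT group and 48.8, 53.6, 47.8 and 50.4 CPM in Opa1+/- mice (log2 fold change 0.33, unadjusted p = 0.0019, adjusted p = 0.7215 from edgeR). The third was *Chac1*, an enzyme that breaks down glutathione, named after its values were seen (log2 fold change 0.80, unadjusted p = 0.00772, adjusted p = 0.7215 from edgeR). *Atf4* itself had 142.0 ± 2.73 CPM in the WT group and 149.3 ± 8.32 CPM in the heterozygotes. *Asns*, which makes asparagine and is a common ATF4 target, had 56.8 ± 8.50 and 58.9 ± 4.95 CPM (n = 4 each, SD for both genes), with overlapping groups for *Atf4* and *Asns* alike. The 2 genes lower in value, also named after their values were seen, were the cystine transporter *Slc7a11* (log2 fold change -0.33, unadjusted p = 0.0599 from edgeR) and the transcription factor *Cebpg* (-0.11, unadjusted p = 0.0572 from edgeR).

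**Figure D5:**
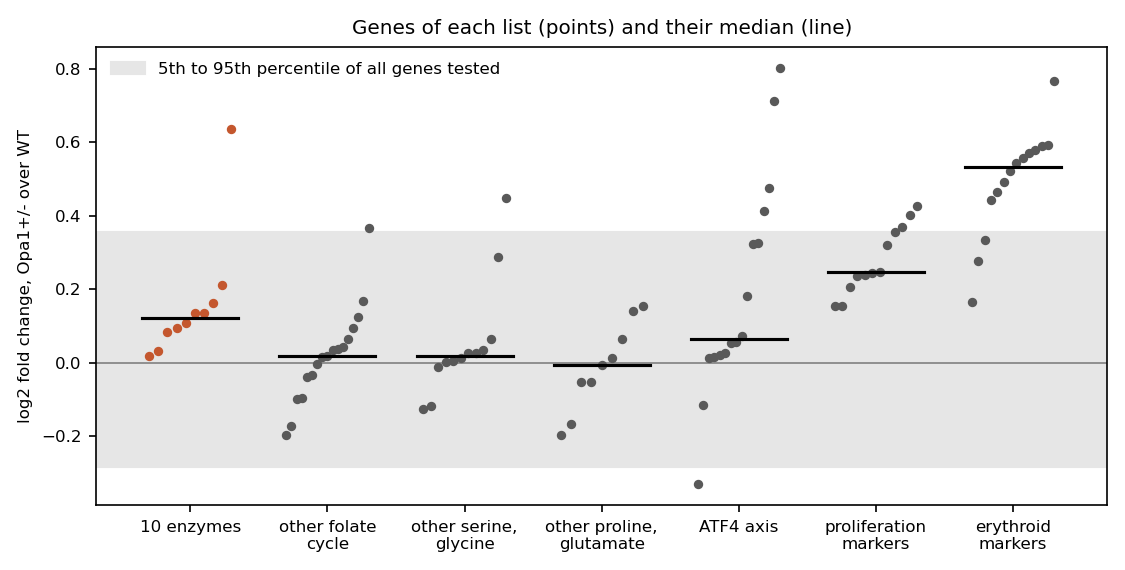
Log2 fold change of Opa1+/- over WT for each tested gene (points) of 7 lists, with the list's median (line), over a band from the 5th to the 95th percentile of all genes tested (-0.28 to 0.36). Of the 10 enzymes (orange), *Shmt1* lies above the band and the other 9 lie within it, and the erythroid markers have the highest median.

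Other cell types in the samples varied beside these values. All 12 proliferation markers were higher in value in Opa1+/- mice, with a median log2 fold change of 0.25 and none past an unadjusted p of 0.05. Their sum ran from 162.3 to 414.4 CPM in the WT group and from 286.9 to 345.4 CPM in Opa1+/- mice. Of 12 Schwann and satellite cell genes, 11 were higher in value, with a median of 0.19, and their sums ran from 3456 to 4632 CPM in the WT group and from 4153 to 5571 CPM in Opa1+/- mice. The 14 bone genes and the 7 tested genes of central glia had medians of -0.033 and 0.030. Of 8 strial genes 7 were lower in value (median -0.16), as were 6 of 8 fibrocyte genes (-0.11) and 7 of 10 hair cell genes (-0.058), and of 10 spiral ganglion genes 6 were higher (0.021). Of 15 neutrophil and marrow genes 8 were higher (0.0012). With erythroid markers as a covariate, *Phgdh*, *Psat1* and *Shmt2* had unadjusted p of 0.0255, 0.0262 and 0.0208 and log2 fold changes of 0.21, 0.19 and 0.28, and an adjusted p of 0.808 from edgeR for all of them. In that fit 5.79% of all genes had an unadjusted p under 0.05. WT_4, with the most erythroid RNA of the WT mice, had the lowest *Phgdh*, *Psat1* and *Psph* of all 8 mice. Het_491, with the most erythroid RNA of all 8, had 44.0, 62.5 and 10.02 CPM of these enzymes and was the lowest in none. The part of blood, dividing cells or glia in the differences of the 10 enzymes was not tested.

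ATF4 and its partners bind a composite element whose core is TGATGCAA, and promoters of the 10 enzymes were searched for it. RefSeq promoters (GRCm38.p6, 250 bases before to 50 after a start) were matched for 9 of the 10, and *Aldh1l2* had no entry. On both strands, TGATGCAA was found in a promoter of 1 of the 9, *Pycr1*, and of 1.03% of all 27025 genes with a promoter entry. The looser TGATGNAA, which includes the first, was found in no further enzyme and in 4.51% of all these genes. The cAMP response element TGACGTCA was in none of the 9 and in 2.03% of all these genes. The site of *Pycr1* starts 103 bases before the RefSeq start and is shown with its flanks, chr11:120643833-120643862, minus strand, with the element in capitals.
Pycr1: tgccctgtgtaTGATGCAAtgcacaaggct
The match is a description of these letters within this window. *Pycr1*, with a log2 fold change of 0.094, lay within the range of the other 9 enzymes.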

How the data were processed

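Per the labels and the paper, the authors made CORALL libraries from cochlear RNA, sequenced paired reads of 80 nucleotides, used molecular identifiers against amplification bias and mapped to GRCm38 (mm10) with STAR. The deposited tables hold raw counts per gene symbol, 1 table per mouse. The raw data went through the kit maker's CORALL analysis pipeline, by the paper's methods. The program that counted and the use of strand are not given in the sources used here. Of 47643 entries, 15 name a number and no gene, with 0.112% to 0.124% of a mouse's counts, and were left out.

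Library sizes were all counts on named genes, scaled by TMM factors (0.948 to 1.06). Genes with a mean count over 10 after division by DESeq2 size factors were tested with edgeR 4.0.16 (quasi-likelihood, not robust, Benjamini-Hochberg adjustment over 19366 genes), after a check on simulated counts with known changes. The square root of F gave the standard errors. Exact tests used all 70 arrangements of 4 of 8 mice. DESeq2 1.42.0 and limma 3.58.1 (voom with quality weights) were alternatives, beside other scalings, filters, a covariate and mice left out. The software was R 4.3.3, Python 3.11.15 and, for plots, matplotlib 3.10.9. A copy of *Phgdh* was a pseudogene matching at least 250 bases at 95% identity or more. Positions are those of GENCODE vM21, whose transcripts also gave the sequences of *Phgdh* and *Gm7901*.

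The enzymes and all gene lists were chosen with earlier results of these data known. Genes named beside the 10 were fixed by role, as the 2 of each list with the lowest p, or as the 3 with the highest Pearson r to *Phgdh*, *Mthfd2* or *Pycr1*. Some genes that this rule names are not reported here. The pseudogenes, *Chac1*, *Slc7a11* and *Cebpg* were named after their values were seen. Each mouse was taken as 1 replicate, and counting error is part of the spread between mice.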

Additional observations from a re-analysis of the deposited data

Results flagged for a closer look

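Within a genotype, a value was looked at again when its distance from the nearest of the other 3 mice, as a share of the range of all 4, was over Dixon's 95% critical value. Of 32 such groups, 3 passed, and chance passes about 1 in 20. *Shmt2* in WT_6 was 16.4 CPM, where the other 3 WT mice had 13.5 to 13.8 CPM. The sum of the 5 folate enzymes in Het_7 was 57.0 CPM, where the other 3 Opa1+/- mice had 50.6 to 51.6 CPM. The sum of the 5 listed pseudogenes of *Phgdh* in WT_4 was 8.16 CPM, where the other 3 had 10.8 to 11.2 CPM.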

How the results depend on the processing

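No alternative tried brought any of the 10 enzymes, or any other pathway gene, past the adjusted threshold, and the median over the 10 stayed above 0. Over all genes, edgeR called 5. DESeq2's Wald test called 23 with or without independent filtering, limma voom and robust estimation 10 each, no filter 12, an adjusted threshold of 0.1 gave 11, erythroid markers as a covariate 1, and leaving out both Het_484 and Het_491 0. With 1 mouse left out it was 0 without Het_2, 1 without WT_6, WT_8, Het_484 or Het_491, 2 without WT_5, 8 without Het_7 and 9 without WT_4. The log2 fold change of *Opa1* lay between -0.90 and -0.83 with 1 mouse left out. It missed the threshold without both Het_484 and Het_491 (-0.86, adjusted p = 0.26 from edgeR), where fewer mice were compared. For the other cases the cause was not tested. The number of enzymes with an unadjusted p under 0.05 ran from 0 to 3, where between 2.9% and 10.4% of all genes had one. No paired analysis was possible because no animal number occurs in both genotypes. *Shmt1* had the fewest counts of the 10, 13 to 46 per mouse, and the widest interval.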
